A study of Mus musculus with 14 samples.

Results

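Inhibition in the hippocampus was followed here through 29 genes that encode receptors for GABA and glycine, the proteins that hold these receptors at the synapse, the chloride transporters that set their driving force and the enzymes that break GABA down. The genes were taken by symbol from the 55450 genes of the deposited table, and all 29 were found in it. Hippocampal RNA of female C57BL/6J mice at 10 weeks of age was sequenced. The labels number the replicates of each genotype without naming animals, and each library is taken here as 1 mouse. There were 3 WT mice, 3 mice with a global deletion of the estrogen receptor GPR30 made with CRISPR/Cas9 (Δ3102), 4 mice with GPR30 deleted in astrocytes (AG-KO) and 4 with GPR30 deleted in neurons (NG-KO). Both conditional genotypes were homozygous for a floxed allele (GPR30 fl/fl). The Cre transgene of AG-KO mice (GFAP-Cre) was driven by the promoter of GFAP, an astrocyte gene, and that of NG-KO mice (NSE-Cre) by the promoter of neuron-specific enolase. Mice that carried only Cre or only the floxed allele were not analysed here, so the effects of these alleles and of the loss of GPR30 cannot be told apart in AG-KO and NG-KO mice. The same WT mice were the controls of all 3 mutant genotypes.

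GABA-A receptors are pentameric chloride channels that mediate fast inhibition, and their α subunit helps to determine where the receptor sits and how it responds to drugs. GABA-B receptors are pairs of G protein-coupled subunits that mediate slow inhibition. Glycine receptors are chloride channels of the same family as GABA-A receptors. At inhibitory synapses, receptors of both kinds are held in place by gephyrin, a scaffold protein beneath the membrane.

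The libraries held 44527024 to 62669865 counts. Gper1, the gene of GPR30, lay between 0.797 and 3.05 FPKM (fragments scaled by transcript length and by the mapped fragments of the library) in WT, between 0.0124 and 0.145 FPKM in Δ3102, between 0.540 and 1.38 FPKM in AG-KO and between 0.975 and 1.41 FPKM in NG-KO mice. The markers of hippocampal fields were present in all groups, with a summed FPKM of CA1 markers from 85.6 to 151 and of dentate gyrus granule cell markers from 50.6 to 106. Markers of other tissues were also present. Over all groups the summed FPKM of 6 skeletal muscle markers was 4.12 to 610 and that of 4 testis markers 0.140 to 165. The muscle sum was 18.6 to 454 in WT and 426 to 610 in Δ3102 mice. It was 4.12 to 223 in AG-KO and 7.50 to 189 in NG-KO mice. The testis sum varied widely among mice of the same genotype. None of the 8 hepatocyte genes was absent from all mice of a genotype. The summed FPKM of 8 hepatocyte genes was 375 to 448 in WT, 13.1 to 479 in Δ3102, 1.9 to 129 in AG-KO and 7.06 to 152 in NG-KO mice. AG-KO replicates 3 and 4 stood apart from the other 12 libraries, with loadings of 0.640 and 0.638 on the first principal component against −0.184 to 0.0446, and ribosomal protein genes took 1.12% and 1.16% of their counts against 1.48% to 1.63%. For the genes with the main differences of AG-KO mice, the value without these libraries is given too. In tissue RNA, fewer cells of a type and less RNA per cell cannot be told apart.

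The 29 genes spanned a wide range of levels in WT hippocampus. FPKM is scaled by transcript length, so levels can be compared between genes on this scale. There were 17 genes at 10 FPKM or more, 11 genes from 1 to 10 FPKM, and Glra3, an α subunit of the glycine receptor, at 0.0695 ± 0.0174 FPKM (SD, n = 3). Gabarapl1, a member of the GABARAP family that serves autophagy and receptor trafficking, was the highest at 338 ± 4.98 FPKM. Gabbr1, the GABA-binding subunit of the GABA-B receptor, followed at 87.5 ± 2.73 FPKM, and its range did not overlap that of any other member. Gabarap was at 69.2 ± 0.842 FPKM, Gabarapl2 at 61.4 ± 0.691 FPKM and Gabra5, the α5 subunit that is enriched in hippocampus, at 61.1 ± 7.82 FPKM. The WT ranges of Gabarapl2 and Gabra5 overlapped. Of the 28 pairs of neighbours in the order of WT means, 17 had overlapping ranges, so the order within most of the list is not resolved by 3 mice.

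**Figure D1:**
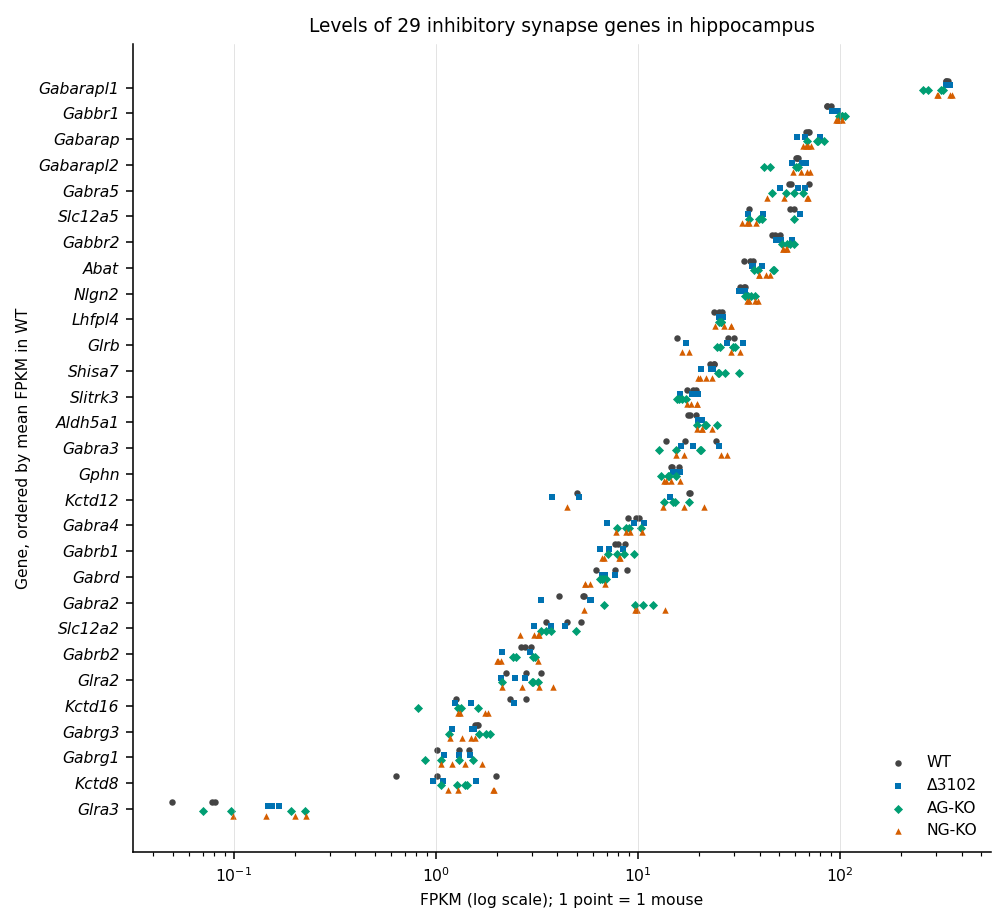
FPKM of the 29 genes on a log scale, 1 point per mouse and 1 colour and marker per genotype, with genes ordered from the highest to the lowest mean in WT. Gabarapl1 lies between 259 and 360 FPKM and Glra3 between 0.0495 and 0.227 FPKM, and Gabra2, Kctd12 and Glrb spread widely among mice.

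The spread over the 14 mice also differed between genes. In 11 of the 28 genes other than Glra3 the highest mouse was under 1.5 times the lowest, and in 6 it was at least 2 times. The steadiest genes were Lhfpl4, an auxiliary subunit that links GABA-A receptors to neuroligin 2, with a highest-to-lowest ratio of 1.21, Gabbr1 with 1.24, and Gphn (gephyrin) and Nlgn2 (neuroligin 2, the adhesion protein of inhibitory synapses), both with 1.24. Kctd12 with 5.67 and Gabra2 with 4.11 were the least steady of these 28 genes.

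To ask whether the genes of the inhibitory synapse differed when GPR30 was lost in all cells, in astrocytes or in neurons, edgeR was run on the counts of 18059 genes, those that reached 0.5 FPKM in 3 or more libraries, and p was adjusted over this whole set. Of the 29 genes, 28 were tested and Glra3 was below the filter. None of the 28 genes passed an adjusted p of 0.05 in any of the 4 comparisons. Among all tested genes, 0.0111% passed between Δ3102 and WT, 0.0221% between AG-KO and WT, 0.072% between NG-KO and WT and 0.111% in AG-KO against NG-KO mice. With an unadjusted p under 0.05, 0 of 28 genes were found in Δ3102 mice, where 4.45% of all tested genes were. The count was 8 of 28 (28.6%) in AG-KO mice, against 14.4% of all tested genes. Of these, 6 were higher and 2 lower, against 6.65% and 7.74% of all tested genes. It was also 8 of 28 in NG-KO mice, against 9.16%, with 5 higher and 3 lower against 4.33% and 4.83%. Between AG-KO and NG-KO mice it was 5 of 28 (17.9%), against 14.1%, with 3 higher and 2 lower against 7.3% and 6.84%. DESeq2, run as an alternative, called 0, 3, 0 and 1 of the 28 genes in these comparisons, where it called 0.161%, 2.26%, 0.914% and 2.38% of all tested genes. The fold change limits of the study, above 2 or below 0.5, were set on the FPKM ratio of the group means, together with an unadjusted p under 0.05. They were passed by 0 of the 28 genes in each comparison, where 1.17%, 3.15%, 2.0% and 2.31% of all tested genes passed them. Gabra2 in AG-KO mice lay at the limit, with an FPKM ratio of 1.97 and a fold of 2.02 from the edgeR fit.

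The median log2 fold change of the 28 genes was 0.00 in Δ3102, 0.04 in AG-KO and 0.02 in NG-KO mice, beside medians of 0.00, −0.01 and −0.02 over all tested genes. The differences described below are given as values, since none passed the test.

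**Figure D2:**
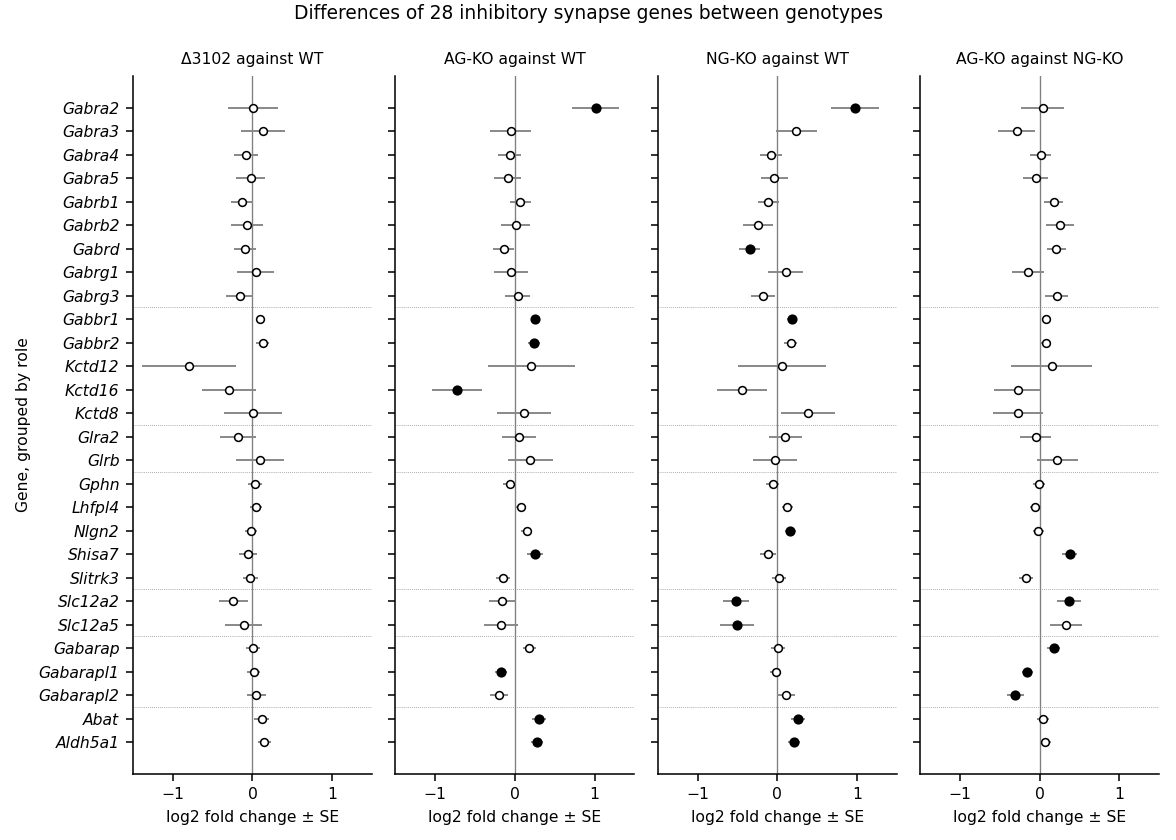
Log2 fold changes from edgeR (points) with their standard errors (bars) for 28 genes in 4 comparisons, with genes grouped by role between dotted lines. Filled points have an unadjusted p under 0.05, and none has an adjusted p under 0.05. Gabra2 lies near 1 in AG-KO and NG-KO mice and at 0.01 in Δ3102 mice.

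Among the 9 subunits of the GABA-A receptor, the widest difference between genotypes was that of Gabra2, the α2 subunit, which is concentrated at synapses on the axon initial segment of pyramidal cells and takes part in the anxiolytic effect of benzodiazepines. Gabra2 was at 5.44, 5.34 and 4.08 FPKM in the 3 WT mice and at 5.83, 3.33 and 5.77 FPKM in the 3 Δ3102 mice. It was at 6.82, 9.73, 11.9 and 10.6 FPKM in the 4 AG-KO mice and at 13.7, 9.65, 9.85 and 5.44 FPKM in the 4 NG-KO mice. All AG-KO mice and 3 of the NG-KO mice were above every WT and Δ3102 mouse, and NG-KO replicate 4 was level with the highest WT mouse, above it by less than 0.01 FPKM. Ordered over all mice, the widest step was 1.42-fold, between 8 mice at 3.33 to 6.82 FPKM and 6 conditional knockout mice at 9.65 to 13.7 FPKM, and 9.11% of the 7564 genes with a mean of at least 5 FPKM had a step as wide with at least 2 mice on either side. Levels of Gabra2 mRNA are known to differ between C57BL/6J and other mouse strains. The labels give C57BL/6J for all mice, and whether the lines differ in their alleles of Gabra2 was not tested. The log2 fold change against WT was 1.01 in AG-KO mice (SE 0.30, edgeR adjusted p = 0.189) and 0.98 in NG-KO mice (SE 0.30, edgeR adjusted p = 0.346), and it was 0.01 in Δ3102 mice (SE 0.31, edgeR adjusted p = 1). The adjusted p of DESeq2 was 0.0261 for AG-KO mice. Without AG-KO replicates 3 and 4 the log2 fold change of AG-KO mice was 0.75 (edgeR adjusted p = 0.682).

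Gabra2 lies at chr5:70957597-71095849 on GRCm38, on the minus strand, in a cluster of 4 GABA-A subunit genes that spans 1398 kb. Its neighbours did not show its difference. Against WT, the log2 fold changes in AG-KO and NG-KO mice were −0.05 and 0.10 for Gabrg1, −0.07 and −0.08 for Gabra4 and 0.07 and −0.11 for Gabrb1, with standard errors from 0.13 to 0.22. Gabra4 (chr5:71569749-71658308, minus strand) and Gabrb1 (chr5:71658113-72149037, plus strand) face each other head to head and their gene bodies overlap by 196 bases. Whether the counting used strand is not given in the sources used here.

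The promoters of these 3 genes are shown to set the gene with the difference beside 2 neighbours without it. They are RefSeq sequences on GRCm38.p6, from 250 bases before to 50 bases after the annotated start, written 5′ to 3′ on the strand of the gene, and capitals mark the GC box GGGCGG and the cyclic AMP response element half-site TGACG on either strand. The windows are chr5:71095800-71096099 (minus strand) for Gabra2, chr5:71658259-71658558 (minus strand) for Gabra4 and chr5:71657671-71657970 (plus strand) for the first of 2 starts of Gabrb1.
Gabra2: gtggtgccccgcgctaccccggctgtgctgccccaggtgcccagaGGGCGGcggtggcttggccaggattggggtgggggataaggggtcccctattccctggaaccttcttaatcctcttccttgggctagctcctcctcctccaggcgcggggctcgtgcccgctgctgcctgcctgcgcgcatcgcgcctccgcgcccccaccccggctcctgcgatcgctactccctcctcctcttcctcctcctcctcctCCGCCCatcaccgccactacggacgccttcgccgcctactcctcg
Gabra4: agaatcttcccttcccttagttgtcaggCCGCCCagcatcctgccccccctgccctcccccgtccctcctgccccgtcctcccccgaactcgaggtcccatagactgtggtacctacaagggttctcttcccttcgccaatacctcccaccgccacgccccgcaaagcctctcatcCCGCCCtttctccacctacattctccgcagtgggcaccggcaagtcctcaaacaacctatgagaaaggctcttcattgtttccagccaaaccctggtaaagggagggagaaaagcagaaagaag
Gabrb1: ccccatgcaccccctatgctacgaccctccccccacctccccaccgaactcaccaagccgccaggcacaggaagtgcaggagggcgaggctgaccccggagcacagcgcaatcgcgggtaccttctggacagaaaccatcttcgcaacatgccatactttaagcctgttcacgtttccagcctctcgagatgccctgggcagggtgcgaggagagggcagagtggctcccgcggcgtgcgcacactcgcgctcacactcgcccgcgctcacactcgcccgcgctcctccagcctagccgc
The Gabra2 and Gabra4 windows each hold 2 GC boxes and the Gabrb1 window none, and none of the 3 windows holds the half-site. Promoter windows of 25 of the 29 genes were counted, 30 windows in all. None was counted for Abat, Gabrd, Kctd16 and Slc12a2, so the shares below do not cover these genes. The GC box occurred in 18 of these 30 windows (60.0%) and in 35.7% of 32851 RefSeq promoter windows of the mouse, and the half-site in 7 of 30 (23.3%) and in 20.8%. The full element TGACGTCA was found in 1 of the 30 windows, that of Kctd8, and in 1.79% of all windows.

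The other 8 GABA-A subunits had log2 fold changes from −0.35 to 0.24 against WT. Gabra5, the most abundant of the 9 subunits, was at 61.1 ± 7.82 FPKM in WT, 60.2 ± 8.52 in Δ3102, 56.4 ± 8.28 in AG-KO and 58.9 ± 12.6 FPKM in NG-KO mice (SD, n = 3, 3, 4 and 4). Gabra3, the α3 subunit, which lies on the X chromosome, was at 24.2, 25.2, 27.6 and 25.8 FPKM in WT replicate 3, Δ3102 replicate 1 and NG-KO replicates 2 and 4 and at 12.8 to 20.6 FPKM in the other 10 mice. The step between these sets was 1.18-fold, and 24.7% of the genes compared had one as wide. Kctd8, an auxiliary protein of the GABA-B receptor, was also highest in these 4 mice, at 2.00, 1.58, 1.94 and 1.92 FPKM, against 0.634 to 1.43 FPKM in the other 10.

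Gabrd, the δ subunit of receptors outside the synapse, which in hippocampus marks dentate granule cells, was at 7.73, 6.24 and 8.83 FPKM in WT mice and at 6.91, 5.45, 5.80 and 5.46 FPKM in NG-KO mice. The groups overlapped through WT replicate 2 and NG-KO replicate 1. Against WT, NG-KO mice had a log2 fold change of −0.35 (SE 0.13, edgeR adjusted p = 0.428). The log2 fold change of Gabrd against WT was −0.10 in Δ3102 and −0.14 in AG-KO mice. The summed FPKM of 8 dentate granule cell markers was 84.5 to 106 in WT and 65.1 to 106 in Δ3102 mice. It was 50.6 to 85.6 in AG-KO and 55.1 to 89.7 in NG-KO mice, and its part in the values of Gabrd was not tested. Gabrg3, the γ3 subunit, was lower in the Δ3102 mice, at 1.21 to 1.54 FPKM, than in the WT mice, at 1.57 to 1.62 FPKM, with a log2 fold change of −0.16 (SE 0.17, edgeR adjusted p = 1). Gabra4, Gabrb1, Gabrb2 and Gabrg1 had log2 fold changes from −0.24 to 0.10 against WT in the 3 mutant genotypes, with an unadjusted edgeR p over 0.05 in each.

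Both subunits of the GABA-B receptor had higher values in AG-KO and NG-KO than in WT mice. Gabbr1 was at 85.9, 90.7 and 85.9 FPKM in WT mice, at 91.6, 97.5 and 91.1 FPKM in Δ3102 mice, at 106, 99.0, 102 and 102 FPKM in AG-KO mice and at 95.8, 102, 97.3 and 98.0 FPKM in NG-KO mice. Each of the 11 mutant mice was above each of the 3 WT mice, which 0.609% of all tested genes and 2 of the 28 genes showed, Gabbr1 and Aldh5a1. Against WT, the log2 fold change was 0.26 in AG-KO mice (SE 0.05, edgeR adjusted p = 0.118), 0.18 in NG-KO mice (SE 0.05, edgeR adjusted p = 0.346) and 0.10 in Δ3102 mice (SE 0.06, edgeR adjusted p = 1). For AG-KO mice the adjusted p of DESeq2 was 0.00106, and edgeR without AG-KO replicate 2 also called Gabbr1. Without AG-KO replicates 3 and 4 the log2 fold change was 0.23 (edgeR adjusted p = 0.376). The hepatocyte markers given above were lower in AG-KO and NG-KO than in WT mice, and their part in these values was not tested.

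Gabbr2, the subunit that couples to the G protein, was at 47.9, 50.5 and 46.1 FPKM in WT mice, at 48.3, 51.1 and 58.2 FPKM in Δ3102 mice, at 51.7, 54.9, 56.4 and 59.2 FPKM in AG-KO mice and at 52.6, 52.4, 54.9 and 54.3 FPKM in NG-KO mice. The AG-KO and NG-KO groups did not overlap WT and the Δ3102 group did, with a log2 fold change of 0.13 (SE 0.08, edgeR adjusted p = 1). Gabbr2 is outside the rule for genes with statistics and was singled out once its values were known, and its log2 fold change in AG-KO mice was 0.24 (SE 0.08, edgeR adjusted p = 0.214), or 0.15 without AG-KO replicates 3 and 4 (edgeR adjusted p = 0.720). The subunits form a receptor only as a pair, and the ratio of their FPKM was compared within each library, where library scaling cancels. Gabbr1 over Gabbr2 was 1.80, 1.80 and 1.87 in WT mice and lay between 1.57 and 2.06 in the 11 mutant mice. The difference of the log2 ratio was −0.03 between Δ3102 and WT, 0.02 between AG-KO and WT, 0.01 between NG-KO and WT and 0.01 between AG-KO and NG-KO mice. The 8 exact permutation tests of this ratio and of the one for chloride transporters gave a two-sided p of 0.686 to 1. After Benjamini-Hochberg adjustment all were 1. The smallest p possible was 0.1 between Δ3102 and WT and 0.0286 between AG-KO and NG-KO mice. In each comparison with WT the numbers of mice allowed no p under 0.05.

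The promoters of Gabbr1 and Aldh5a1, the genes that were higher in each mutant mouse than in each WT mouse, are shown from the same source and with the same capitals. The windows are chr17:37045716-37046015 (plus strand) for Gabbr1 and chr13:24937612-24937911 (minus strand) for Aldh5a1.
Gabbr1: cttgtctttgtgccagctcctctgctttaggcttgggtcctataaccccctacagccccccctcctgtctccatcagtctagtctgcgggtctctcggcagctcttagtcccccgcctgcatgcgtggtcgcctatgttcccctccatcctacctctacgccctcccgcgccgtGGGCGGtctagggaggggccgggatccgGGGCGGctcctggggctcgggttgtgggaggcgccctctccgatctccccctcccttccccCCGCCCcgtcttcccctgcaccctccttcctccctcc
Aldh5a1: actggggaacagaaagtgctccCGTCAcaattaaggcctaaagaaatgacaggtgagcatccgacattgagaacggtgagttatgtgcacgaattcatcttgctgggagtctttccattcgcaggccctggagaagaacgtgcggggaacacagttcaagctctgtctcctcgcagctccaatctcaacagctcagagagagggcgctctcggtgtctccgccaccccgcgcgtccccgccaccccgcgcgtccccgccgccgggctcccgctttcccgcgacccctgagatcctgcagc
The Gabbr1 window holds 3 GC boxes and no half-site, and the Aldh5a1 window holds 1 half-site and no GC box. Neither of the marked motifs was found in both windows. TATAAA and CCAAT were searched too, and of these only 1 CCAAT was found, in the Aldh5a1 window.

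The KCTD proteins, which bind the GABA-B receptor and shape the time course of its response, varied widely among mice, with highest-to-lowest ratios of 5.67 for Kctd12, 3.42 for Kctd16 and 3.15 for Kctd8. Kctd12 was at 18.03, 4.97 and 17.85 FPKM in WT mice, at 14.5, 3.76 and 5.12 FPKM in Δ3102 mice, at 15.2, 17.95, 13.4 and 15.0 FPKM in AG-KO mice and at 21.4, 16.9, 4.45 and 13.4 FPKM in NG-KO mice. It divided into 4 mice at 3.76 to 5.12 FPKM and 10 mice at 13.4 to 21.4 FPKM, with low mice in 3 of the 4 genotypes and none among the AG-KO mice. The gap between these sets was 2.61-fold, and 1.93% of the 7564 genes with a mean of at least 5 FPKM had a gap as wide with at least 2 mice on either side. The counts behind these values were 1385 to 8245 per library. The microRNA gene model Mir5130, which lies inside an exon of Kctd12, held 8 to 13 counts in the 4 mice with low Kctd12, 8 in AG-KO replicate 1 and 0 to 2 in the other 9 mice. Kctd12 had a log2 fold change of −0.80 in Δ3102 mice (SE 0.59, edgeR adjusted p = 1), where 2 of 3 mice were low.

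Kctd16 was at 1.26, 2.81 and 2.34 FPKM in WT mice and at 1.34, 1.29, 1.61 and 0.821 FPKM in AG-KO mice. The groups overlapped through WT replicate 1. In AG-KO mice the log2 fold change was −0.72 (SE 0.31, edgeR adjusted p = 0.319), or −0.70 without AG-KO replicates 3 and 4.

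Of the glycine receptor subunits, Glrb, the β subunit that binds gephyrin, was at 24.6 ± 7.86 FPKM in WT mice and Glra2, the α2 subunit, on the X chromosome, at 2.78 ± 0.540 FPKM (SD, n = 3). Glrb was low in WT replicate 1, Δ3102 replicate 1 and NG-KO replicates 2 and 4, at 15.6, 17.3, 16.5 and 17.9 FPKM, and between 24.7 and 33.1 FPKM in the other 10 mice. This gap was 1.38-fold, and 10.2% of the genes compared had one as wide. Across genotypes the log2 fold change of Glrb against WT was 0.09 in Δ3102, 0.19 in AG-KO and −0.03 in NG-KO mice, with standard errors from 0.28 to 0.30. Glra3 was at 0.0807, 0.0784 and 0.0495 FPKM in WT mice, at 0.154, 0.148 and 0.167 FPKM in Δ3102 mice, at 0.0971, 0.0706, 0.193 and 0.224 FPKM in AG-KO mice and at 0.200, 0.227, 0.0996 and 0.144 FPKM in NG-KO mice. The Δ3102 and NG-KO groups lay above WT and the AG-KO group overlapped it. With no filter on FPKM the log2 fold change against WT was 1.16 in Δ3102 (SE 0.51), 1.10 in AG-KO (SE 0.49) and 1.27 in NG-KO mice (SE 0.49), with edgeR adjusted p of 0.872, 0.515 and 0.640. These values rest on 29 to 131 counts per library.

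**Figure D3:**
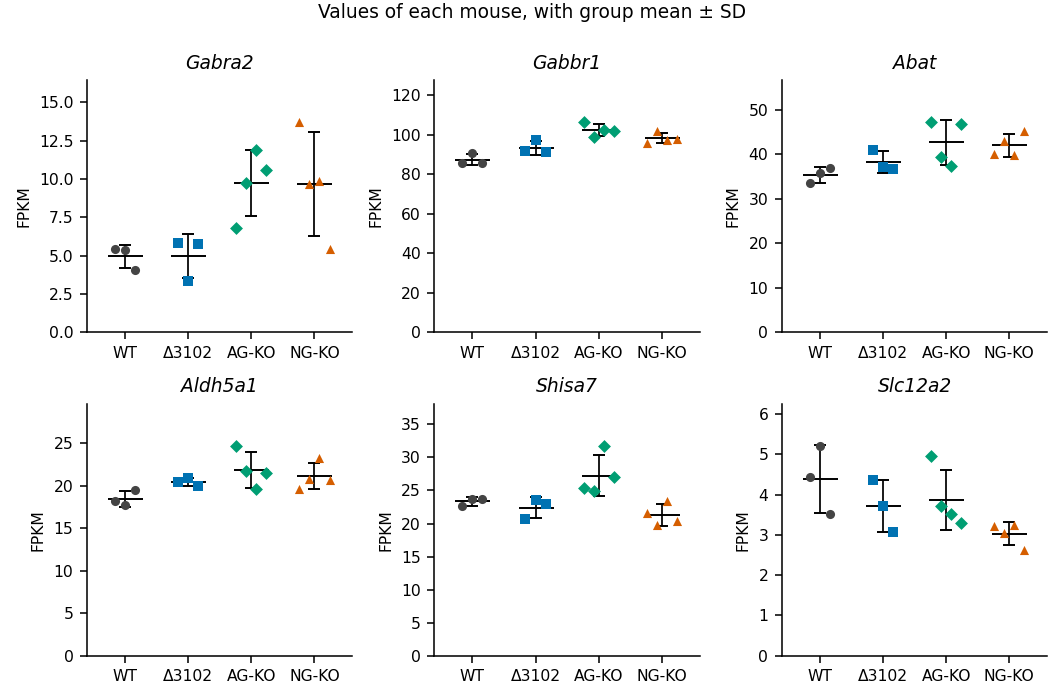
FPKM of each mouse (points) by genotype for 6 genes, with the group mean (horizontal line) and SD (bars), for 3 WT mice, 3 Δ3102 mice and 4 mice of each conditional genotype. Each AG-KO mouse is above each WT mouse in Gabra2, Gabbr1, Abat, Aldh5a1 and Shisa7, and each NG-KO mouse is below each WT mouse in Slc12a2.

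Among the 5 genes for proteins of the postsynaptic side, all but Shisa7 had highest-to-lowest ratios from 1.21 to 1.28 over the 14 mice. Gphn was at 15.2 ± 0.769 FPKM in WT, 15.5 ± 0.628 in Δ3102, 14.2 ± 0.965 in AG-KO and 14.5 ± 1.19 FPKM in NG-KO mice (SD, n = 3, 3, 4 and 4), and its log2 fold changes against WT were 0.03, −0.07 and −0.06 with standard errors from 0.08 to 0.09. Lhfpl4 had log2 fold changes of 0.05, 0.07 and 0.12 with a standard error of 0.07 in each. Nlgn2 was at 33.9, 31.9 and 33.6 FPKM in WT mice and at 35.5, 38.1, 34.6 and 39.2 FPKM in NG-KO mice, without overlap. Its log2 fold change in NG-KO mice was 0.17 (SE 0.07, edgeR adjusted p = 0.512). Like Gabbr2, Nlgn2 was singled out once its values were known. Slitrk3, an adhesion protein selective for inhibitory synapses, was at 17.44 to 19.49 FPKM in WT and 15.57 to 17.35 FPKM in AG-KO mice, without overlap, and its log2 fold change was −0.15 (SE 0.09, edgeR adjusted p = 0.464).

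Shisa7, an auxiliary subunit that controls the trafficking and kinetics of GABA-A receptors, was higher in each AG-KO mouse than in each NG-KO mouse. It was at 22.6, 23.8 and 23.7 FPKM in WT mice, at 20.6, 23.5 and 23.0 FPKM in Δ3102 mice, at 25.3, 24.9, 31.8 and 27.1 FPKM in AG-KO mice and at 21.7, 19.8, 23.4 and 20.3 FPKM in NG-KO mice. Each AG-KO mouse was above every other mouse, and AG-KO replicates 3 and 4 were the highest. The log2 fold change of AG-KO against NG-KO mice was 0.38 (SE 0.09, edgeR adjusted p = 0.130), with adjusted p of 0.0241 in DESeq2 and 0.0373 in limma voom with sample weights. Without AG-KO replicates 3 and 4 it was 0.22 (edgeR adjusted p = 0.595). Against WT it was 0.26 (SE 0.10, edgeR adjusted p = 0.285), or 0.11 without these libraries.

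The chloride transporters work in opposite directions, as Slc12a5 (KCC2) moves chloride out of mature neurons and Slc12a2 (NKCC1) moves it into cells. Slc12a2, on chromosome 18, was at 4.45, 5.22 and 3.51 FPKM in WT mice, at 4.36, 3.71 and 3.07 FPKM in Δ3102 mice, at 4.97, 3.73, 3.51 and 3.30 FPKM in AG-KO mice and at 3.22, 3.05, 3.25 and 2.62 FPKM in NG-KO mice. The NG-KO mice were below every WT and every AG-KO mouse. Δ3102 replicates 1 and 2 were within the WT range, and Δ3102 replicate 3 was below it. The log2 fold change of NG-KO mice was −0.52 against WT (SE 0.17, edgeR adjusted p = 0.355), and that of AG-KO against NG-KO mice was 0.37 (SE 0.15, edgeR adjusted p = 0.305), or 0.50 without AG-KO replicates 3 and 4. The transporter is also made by glia and choroid plexus. The summed FPKM of 10 oligodendrocyte markers was 430 to 986 in WT, 377 to 443 in Δ3102, 423 to 794 in AG-KO and 250 to 389 in NG-KO mice, and that of 10 choroid plexus markers was 80.7 to 125 in WT, 23.7 to 1447 in Δ3102, 20.8 to 246 in AG-KO and 7.05 to 48.0 in NG-KO mice. Their part in the values of Slc12a2 was not tested.

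Slc12a5 was at 59.1, 56.5 and 35.5 FPKM in WT mice, at 41.8, 35.2 and 63.2 FPKM in Δ3102 mice, at 59.5, 35.6, 39.8 and 41.0 FPKM in AG-KO mice and at 32.6, 34.5, 35.4 and 38.5 FPKM in NG-KO mice. It was between 56.5 and 63.2 FPKM in 4 mice of 3 genotypes and between 32.6 and 41.8 FPKM in the other 10, which included all NG-KO mice and WT replicate 3. This step was 1.35-fold, and 10.9% of the genes compared had one as wide. In NG-KO mice its log2 fold change was −0.51 (SE 0.22, edgeR adjusted p = 0.506). Slc12a5 over Slc12a2 was 13.3, 10.8 and 10.1 in WT mice, 9.60, 9.48 and 20.6 in Δ3102 mice, 9.55 to 12.4 in AG-KO mice and 10.2 to 14.7 in NG-KO mice. The groups overlapped, and the log2 ratio differed by 0.12 between Δ3102 and WT, −0.01 between AG-KO and WT, 0.04 between NG-KO and WT and −0.05 between AG-KO and NG-KO mice.

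**Figure D4:**
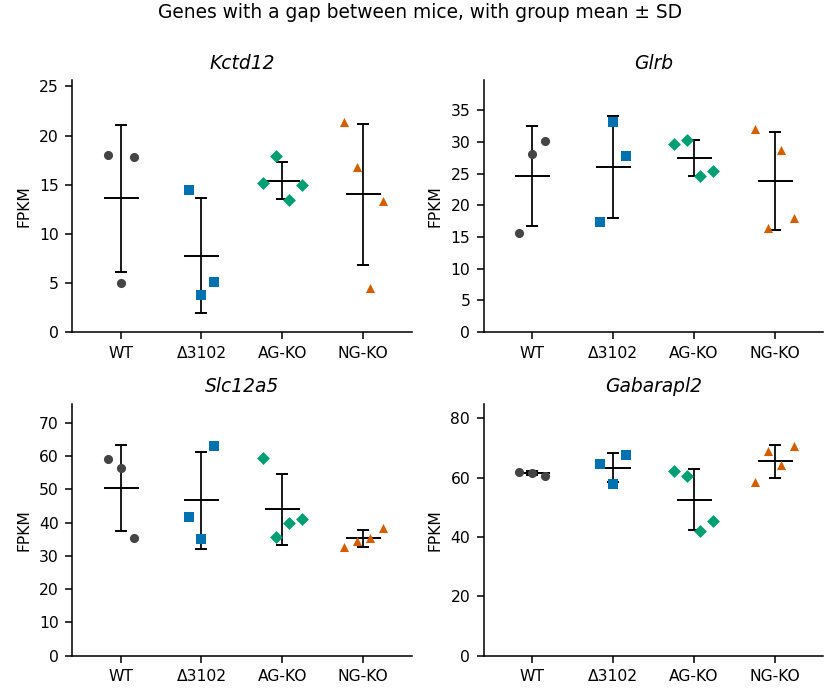
FPKM of each mouse (points) by genotype for 4 genes with a gap between mice, with the group mean (horizontal line) and SD (bars), for 3 WT mice, 3 Δ3102 mice and 4 mice of each conditional genotype. Kctd12 is low in 4 mice of 3 genotypes, Glrb in 4 mice of 3 genotypes and Gabarapl2 in AG-KO replicates 3 and 4, and Slc12a5 is high in 4 mice of 3 genotypes.

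Of the GABARAP family, small ubiquitin-like proteins that act in autophagy and in the transport of GABA-A receptors, Gabarapl2 was low in the 2 AG-KO libraries that stood apart. Gabarapl2 was at 62.4, 60.6, 42.2 and 45.3 FPKM in AG-KO mice, at 60.7 to 62.1 FPKM in WT mice, at 58.0 to 67.6 FPKM in Δ3102 mice and at 58.4, 68.9, 64.2 and 70.8 FPKM in NG-KO mice. AG-KO replicates 3 and 4 were below all other mice, while replicates 1 and 2 were within the range of the other genotypes. The step was 1.28-fold, and 14.2% of the genes compared had one as wide. Of the 21 members with a mean of at least 5 FPKM, 4 had a step of at least 1.3-fold, as did 13.2% of the genes compared. The log2 fold change of AG-KO against NG-KO mice was −0.31 (SE 0.11, edgeR adjusted p = 0.235), or −0.11 without replicates 3 and 4 (edgeR adjusted p = 0.817). Gabarapl1 was at 316, 323, 273 and 259 FPKM in AG-KO mice, at 335 to 344 FPKM in WT mice and at 307, 349, 304 and 360 FPKM in NG-KO mice. All AG-KO mice were below all WT mice, with replicates 3 and 4 the lowest, and the NG-KO mice lay on both sides of WT. Its log2 fold change was −0.18 against WT (SE 0.07, edgeR adjusted p = 0.302), or −0.08 without these libraries, and −0.16 against NG-KO mice (SE 0.07, edgeR adjusted p = 0.329), or −0.06 without them. Gabarap was at 83.5, 68.9, 78.0 and 77.3 FPKM in AG-KO mice and at 65.9, 72.2, 68.0 and 69.9 FPKM in NG-KO mice, with a log2 fold change of 0.18 (SE 0.08, edgeR adjusted p = 0.345), or 0.12 without AG-KO replicates 3 and 4. These groups overlapped through AG-KO replicate 2.

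Both enzymes of GABA breakdown had higher values in the conditional genotypes. Abat, the transaminase that removes the amino group of GABA, was at 33.5, 35.8 and 37.0 FPKM in WT mice, at 41.1, 37.0 and 36.6 FPKM in Δ3102 mice, at 47.2, 39.3, 37.4 and 46.9 FPKM in AG-KO mice and at 40.0, 42.9, 39.9 and 45.3 FPKM in NG-KO mice. All AG-KO and NG-KO mice were above all WT mice, while Δ3102 mice overlapped them. The log2 fold change was 0.30 in AG-KO mice (SE 0.09, edgeR adjusted p = 0.186), 0.26 in NG-KO mice (SE 0.09, edgeR adjusted p = 0.387) and 0.11 in Δ3102 mice (SE 0.09, edgeR adjusted p = 1). Aldh5a1, succinic semialdehyde dehydrogenase, which acts on the product of Abat, was at 18.2, 17.7 and 19.5 FPKM in WT mice, at 20.4, 20.9 and 19.9 FPKM in Δ3102 mice, at 24.7, 21.8, 19.6 and 21.5 FPKM in AG-KO mice and at 19.7, 20.8, 23.3 and 20.7 FPKM in NG-KO mice. The 3 WT mice were the lowest of the 14, although AG-KO replicate 3 and NG-KO replicate 1 were above WT replicate 3 by less than 0.2 FPKM. Its log2 fold change was 0.27 in AG-KO mice (SE 0.07, edgeR adjusted p = 0.171), 0.21 in NG-KO mice (SE 0.07, edgeR adjusted p = 0.420) and 0.15 in Δ3102 mice (SE 0.08, edgeR adjusted p = 1). The adjusted p of DESeq2 was 0.0384 for AG-KO mice. Without AG-KO replicates 3 and 4 the log2 fold changes of AG-KO mice were 0.29 for Abat and 0.33 for Aldh5a1. Both enzymes are also abundant in liver, and the hepatocyte markers were lower in AG-KO and NG-KO than in WT mice. Their part in these values was not tested.

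Groups that did not overlap in FPKM were counted for all 28 genes. In AG-KO against WT mice there were 8 such genes, where 13.3% of all tested genes did not overlap. They were 6 higher (Abat, Aldh5a1, Gabbr1, Gabbr2, Gabra2 and Shisa7) and 2 lower (Gabarapl1 and Slitrk3), against 5.04% higher and 8.3% lower of all tested genes. In NG-KO against WT mice there were 7, where 10.9% of all tested genes did not overlap. They were 6 higher (Abat, Aldh5a1, Gabbr1, Gabbr2, Gabra2 and Nlgn2) and 1 lower (Slc12a2), against 4.2% and 6.66%. These comparisons share the WT mice, so the pair of counts is not independent. In Δ3102 against WT mice there were 3, Aldh5a1 and Gabbr1 higher and Gabrg3 lower, or 10.7% of the 28 genes where 11.5% of all tested genes did not overlap. In AG-KO against NG-KO mice there were also 3, Shisa7 and Slc12a2 higher and Slitrk3 lower, where 6.77% of all tested genes did not overlap.

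Other genes of the inhibitory synapse were counted from a list of 59, of which 46 were tested. In the 4 comparisons 0 passed an adjusted p of 0.05 with edgeR, and DESeq2 called 1 between AG-KO and WT, the neurexin gene Nrxn2, 1 between AG-KO and NG-KO, the neurexin gene Nrxn3, and 0 in the others, where it called 2.26% and 2.38% of all tested genes in the comparisons with a call. Both neurexin genes encode presynaptic adhesion proteins and were named because their count is small, after it was seen. At an unadjusted p under 0.05, 1 was higher and 2 were lower in Δ3102 mice, beside 2.18% higher and 2.27% lower of all tested genes. In AG-KO mice 9 were higher and 1 was lower, beside 6.65% and 7.74% of all tested genes, and in NG-KO mice 4 were higher and 2 were lower, beside 4.33% and 4.83%. Between AG-KO and NG-KO mice 5 were higher and 1 was lower, beside 7.3% and 6.84%. Their median log2 fold change was 0.01 in Δ3102, 0.12 in AG-KO and 0.06 in NG-KO mice, beside 0.00, −0.01 and −0.02 over all tested genes. The summed FPKM of 19 markers of interneurons, the cells that make GABA, was 694 to 762 in WT, 775 to 803 in Δ3102, 637 to 876 in AG-KO and 692 to 821 in NG-KO mice, and its part in these values was not tested.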

How the data were processed

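Hippocampal poly(A) RNA of 14 female mice was sequenced by the authors with paired-end reads. Per the methods and the submitters' processing notes, adapters were removed by cutadapt 1.9, alignment to GRCm38 used HISAT2 2.0.4 and assembly used StringTie 1.3.4d, and UMI-tools, DESeq2 and edgeR are listed without versions. The deposited FPKM values were calculated by the authors with StringTie. The deposited count values are whole and without normalization, and the counting program is not given in the sources used here. Coordinates are those of the deposited table, and 27 of the 29 genes have the same ones in GENCODE vM21. Of the 91 pairs of libraries 0 were identical.

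Groups follow the labels, which do not say more of the replicates than that they are separate samples, so p-values measure the spread between these samples. The members and gene lists were chosen with earlier results of these data known. A single fit in edgeR 4.0.16 (R 4.3.3) took in the counts of the 14 libraries with TMM normalization and the quasi-likelihood test, 1 mean per genotype and no covariates, for genes with FPKM of at least 0.5 in at least 3 libraries. Log2 fold changes and their standard errors come from this fit. Tests were two-sided, and p was adjusted by Benjamini-Hochberg over all 18059 genes tested. Genes given with full statistics were those at adjusted p under 0.05 or, where fewer than 4 passed, up to 4 in each direction at unadjusted p under 0.05. Statistics printed for other genes or comparisons were chosen after the values were seen. The FPKM ratios were compared with exact permutation tests over mice. Alternatives were other filters, median-ratio scaling, DESeq2 1.42.0, limma 3.58.1 on log2 FPKM with pseudocounts of 0.1 and 1, voom with sample weights, a replicate block, only the 2 groups compared and leaving out each library. Leaving out AG-KO replicates 3 and 4 together was added after seeing the data. The procedure was tested on simulated data.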

Additional observations from a re-analysis of the deposited data

Results flagged for a closer look

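Of 58 groups of 4 mice examined, over the AG-KO and NG-KO groups of the 29 genes, 2 held a mouse far from the others by Dixon's test, and chance alone gives about 1 in 20 such groups. Gabrb2, the β2 subunit of the GABA-A receptor, was at 3.21 FPKM in NG-KO replicate 1 and at 2.00 to 2.10 FPKM in the other 3 NG-KO mice, a gap of 0.92 of the range of the group. Lhfpl4 was at 25.35 FPKM in AG-KO replicate 1 and at 25.85 to 25.9 FPKM in the other 3 AG-KO mice, a gap of 0.904 of a narrow range.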

How the results depend on the processing

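The 21 log2 fold changes with an unadjusted edgeR p under 0.05 kept their direction in all 504 values under 24 alternatives. They were picked by p in these same libraries. Some alternatives only left out a mouse of a genotype outside the comparison, so a kept direction adds little. No gene of the 28 was called in Δ3102 or NG-KO mice against WT under any of these alternatives. In AG-KO against WT, DESeq2 called 3 of them, voom with sample weights 1 and leaving out single libraries 0 to 1, where the call was Gabbr1 without AG-KO replicate 2. In AG-KO against NG-KO, DESeq2 called 1 and voom 2 (Shisa7 and Gabarapl2). Over all genes, edgeR called 2 in Δ3102, 4 in AG-KO and 13 in NG-KO mice against WT and 20 between AG-KO and NG-KO mice. In the same order, DESeq2 called 29, 408, 165 and 430 genes, and the replicate block called 1, 1, 5 and 9. The replicate numbers are not known to pair mice (median correlation of same-numbered libraries −0.01), and the block changed no call of the 28 genes. Fits of only the groups compared called 0 in Δ3102, 7 in AG-KO and 13 between AG-KO and NG-KO mice, and limma on log2(FPKM + 1) called 14 in AG-KO mice. Voom called 321 in AG-KO mice and 477 between AG-KO and NG-KO mice. Leaving out single libraries gave 2 to 10, 1 to 82, 8 to 19 and 13 to 297 genes, with 10 without WT replicate 1, 82 and 297 without AG-KO replicate 2, 1 without AG-KO replicate 4 and 8 and 13 without Δ3102 replicate 1. The cause of these differences was not tested. The log2 ratio of Slc12a5 to Slc12a2 changed sign when single libraries were left out and ranged from −0.2485 to 0.3095 in Δ3102, −0.09048 to 0.1069 in AG-KO and −0.07265 to 0.1542 in NG-KO mice and from −0.1135 to 0.06422 between AG-KO and NG-KO mice. That of Gabbr1 to Gabbr2 did so too, with −0.07889 to 0.06369, −0.03046 to 0.05463, −0.01541 to 0.03084 and −0.04268 to 0.04242. Glra3, at 29 to 131 counts per library, was the gene of the 29 with the fewest counts.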
